A study of Homo sapiens with 16 samples.

Results

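The genes described here are 9 negative regulators ("brakes") of JAK-STAT signalling, listed by name: SOCS1, SOCS2, SOCS3, CISH, PTPN1, PTPN2, PTPN6, PTPN11 and PIAS1. Of these 9 genes, 8 were found by symbol among the 20802 gene targets counted, and SOCS1 is not analysed here. A filter on low counts left 7 of the 8 among the 12704 genes tested, and PTPN6 fell below it. The 16 libraries came from HEK293, an established line from human embryonic kidney, and formed 8 groups of 2. In 4 groups the cells carried wild-type interferon receptors and in 4 receptors that the series calls optimized, by which it means their geometry. The sources used here do not say how these receptors were built. Cells of each genotype were untreated or received IFNw (interferon omega, a type I interferon), IFNL3 (interferon lambda 3, a type III interferon) or H11 (an engineered IFNL3 with a raised affinity for its receptor), each at 100 nM. Exposure is labelled as 15 min and time as 24 hr. The series asks how the geometry in which the JAKs are held affects expression under these interferons. The 2 libraries of a group are labelled biological replicates, with no word on separate cultures, so p-values measure only the spread between these libraries. Untreated cells are not described as mock-handled, so ligand and handling cannot be told apart.

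Interferon receptors carry the kinases JAK1 and TYK2, which phosphorylate STAT proteins and so start transcription of interferon-stimulated genes. Several kinds of protein limit this. SOCS proteins and CISH are themselves transcribed under STAT control, bind the activated receptors or kinases, and recruit a ubiquitin ligase through their SOCS box. The phosphatases PTPN1 (PTP1B), PTPN2 (TC-PTP), PTPN6 (SHP-1) and PTPN11 (SHP-2) remove phosphate from receptors, JAKs or STATs, and PTPN11 also carries growth-factor signals forward. PIAS1 binds activated STAT proteins and is a SUMO E3 ligase.

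Since SOCS genes and CISH are known STAT targets, the 250 bases before a transcription start were searched for the letters STATs bind. RefSeq windows (GRCh38.p14) were found for 6 of the 8 genes and none was found for SOCS2 or PTPN11. Only the first listed window of a gene was used, so it may not lie before the gene's main start. The motifs were the GAS element TTCNNNGAA, a GAS form with 4 bases between TTC and GAA, and an ISRE core of TTTC repeated after 2 bases, on both strands. Among 35116 promoter windows of the same length, 6.57% held TTCNNNGAA, 5.38% held the form with the longer spacer and 3.02% held the ISRE core. The CISH window held 4 matches to TTCNNNGAA, and only 5 of all windows (0.014%) held 4 or more. The windows of SOCS3, PTPN1, PTPN2, PTPN6 and PIAS1 held none of these letters, which says nothing of sites elsewhere or before another start. The PTPN2 window had 35.2% GC, against a median of 58% over all windows. CISH (chr3:50611775-50612024, minus strand) is printed with its matches in capitals, and SOCS3 (chr17:78360926-78361175, minus strand), the other STAT-induced gene with a window, for comparison, both 5′ to 3′:
CISH: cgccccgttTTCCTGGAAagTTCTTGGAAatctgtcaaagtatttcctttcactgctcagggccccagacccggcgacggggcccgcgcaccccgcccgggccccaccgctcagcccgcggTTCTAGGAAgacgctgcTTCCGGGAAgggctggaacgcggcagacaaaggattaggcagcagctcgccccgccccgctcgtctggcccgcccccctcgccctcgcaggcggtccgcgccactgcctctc
SOCS3: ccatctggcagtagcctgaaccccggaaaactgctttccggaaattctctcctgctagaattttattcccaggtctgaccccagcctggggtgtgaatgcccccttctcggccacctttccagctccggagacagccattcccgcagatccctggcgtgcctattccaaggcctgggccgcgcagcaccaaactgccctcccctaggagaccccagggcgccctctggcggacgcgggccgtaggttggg
From the transcription start used, the CISH matches lie at -241 to -233, -230 to -222, -129 to -121 and -112 to -104.

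Library totals ran from 5331203 reads (untreated optimized cells, replicate 2) to 9822088. Untreated optimized replicate 2 stood apart: the 2 libraries of that group had a Pearson's r across genes of 0.960 in log CPM (read counts scaled to a common library size), while the other 7 pairs had 0.987 to 0.988. The 4 wild-type libraries with H11 or IFNL3 also stood apart. Log CPM of each gene was taken relative to its mean over the 16 libraries. Spearman's correlation of this value with transcript length across genes was 0.404 to 0.438 in those 4 libraries. It was -0.468 to -0.433 in the 6 libraries with IFNw or with H11 in optimized cells, and 0.032 to 0.166 in the other 6. Long transcripts thus had relatively more reads in some groups than in others. PIAS1 (longest transcript 8115 nt) and PTPN11 (6101 nt) are longer than 91.7% and 81.6% of tested genes, whose median is 3636 nt. Results were therefore also computed with a transcript length offset, which takes the length trend out of each library. The trend differed by treatment group, so the offset also takes out any response that long transcripts share. A library trend and such a response cannot be told apart here. The lengths are those of the longest annotated transcript, not of the counted target. The interferon response itself was present with every ligand: 8 of 9 control genes rose against untreated cells in all 6 ligand comparisons.

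Of 10 genes set to check the cell line, 5 to 6 reached 1 CPM in each group, including VIM, KRT18 and CDH2. Over all libraries NEFM had 4 reads, HAND2 53, NEFL 59 and IRS4 65. Of 12 blood-cell markers only CD68 reached 1 CPM, and PTPRC had 1 read in all. The summed blood-marker level was 1.39 to 2.27 CPM in 6 groups, and in wild-type cells it was 6.19 CPM for H11 and 4.25 CPM for IFNL3. Of 7 fibroblast markers, COL1A1 and THY1 reached 1 CPM, with sums of 17.8 to 27.1 CPM. Their part in the results below was not tested. In bulk RNA, fewer cells of a kind and less RNA per cell cannot be told apart.

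What the data show can be put shortly. The STAT-induced brakes SOCS2, SOCS3 and CISH had few reads, and none of them passed the test in any of 19 comparisons. IFNw-treated cells of either genotype, and optimized cells with H11, had less PTPN11 and PIAS1 than untreated cells. The H11 calls of both genes, and the wild-type IFNw call of PIAS1, were each lost in some fit that left out 1 library. PTPN11 rose with H11 and IFNL3 in wild-type cells, and both calls were lost with a transcript length offset and without any 1 of the 4 libraries behind each. The H11 rise passed again with the offset and the replicate number as a block together, a fit chosen after seeing the data. PTPN2 was lower in optimized than in wild-type cells under H11, a call lost without any 1 of 3 of the 4 libraries. These calls leave aside the pairing of same-numbered libraries. With the replicate number as a block, PTPN1 passed in 3 of 19 comparisons instead of 0, and PTPN2 in 6 instead of 3. The falls of PTPN11 passed the test with the length offset too, but no call of PIAS1 did. Every test named is edgeR's quasi-likelihood test on all 16 libraries, with Benjamini-Hochberg adjustment over the 12704 genes and a threshold of 0.05, and every fold change is on the log2 scale with its standard error (SE). Because each gene is counted at a target of unknown length, CPM values compare groups for one gene and not one gene with another.

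**Figure D1:**
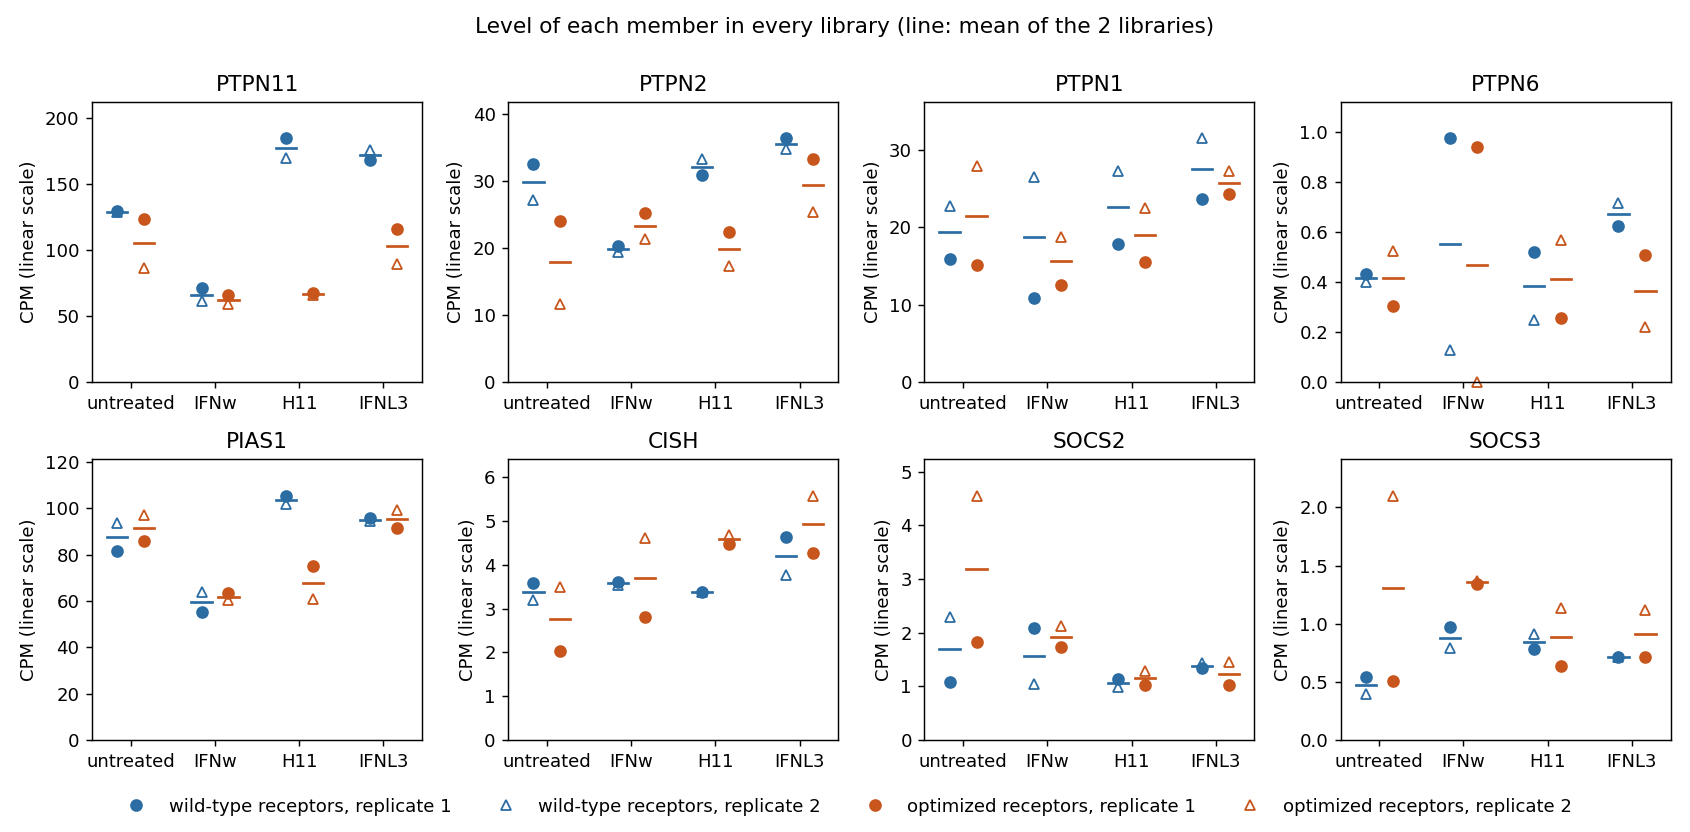
Level of the 8 genes in each of the 16 libraries, in CPM (linear axis from 0), by treatment. Blue marks are wild-type and orange marks optimized receptors, circles are replicate 1, triangles replicate 2 and bars the mean of 2 libraries. PTPN11 sits between 168.4 and 185.0 CPM in wild-type cells with H11 or IFNL3 and between 59.3 and 71.2 CPM in both genotypes with IFNw and in optimized cells with H11.

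SOCS3, which binds JAKs and the shared receptor gp130 and is the classic feedback inhibitor of STAT3, had 126 reads in all 16 libraries. In wild-type cells it was at 0.542 and 0.399 CPM untreated (5 and 4 reads), 0.974 and 0.788 CPM with IFNw, 0.782 and 0.909 CPM with H11, and 0.715 and 0.717 CPM with IFNL3. In optimized cells it was at 0.509 and 2.10 CPM untreated, 1.34 and 1.37 CPM with IFNw, 0.641 and 1.14 CPM with H11, and 0.713 and 1.12 CPM with IFNL3. Every treated wild-type library thus lay above both untreated ones, while in optimized cells untreated replicate 2 was the highest library of all. The fold change with IFNw in wild-type cells was 0.89 (SE 0.73, adjusted p = 0.388), with a 95% interval from -0.65 to 2.43. At this depth neither a rise of several fold nor a small fall could be told from no change.

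SOCS2, known for restraining growth hormone signalling, had 226 reads in all. Wild-type libraries held 1.09 and 2.29 CPM untreated, 2.09 and 1.05 CPM with IFNw, 1.13 and 0.992 CPM with H11, and 1.34 and 1.44 CPM with IFNL3. Optimized libraries held 1.83 and 4.55 CPM untreated, 1.74 and 2.12 CPM with IFNw, 1.03 and 1.28 CPM with H11, and 1.02 and 1.45 CPM with IFNL3. In optimized cells both untreated libraries lay above all 4 libraries with H11 or IFNL3. The fold change was -1.39 (SE 0.56, adjusted p = 0.0643) with H11 and -1.30 (SE 0.53, adjusted p = 0.117) with IFNL3, neither past the threshold. Each value passed in 1 of the 12 alternatives run. The size of these values depended on untreated optimized replicate 2, the library that stood apart. Without replicate 1, so with replicate 2 as the only untreated library, they were -1.97 and -1.88. Over all alternatives the fold change ran from -1.97 to -0.67 with H11 and from -1.88 to -0.57 with IFNL3.

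CISH, a STAT5 target that binds cytokine receptors, had 550 reads. Wild-type cells gave 3.58 and 3.19 CPM untreated, 3.62 and 3.55 CPM with IFNw, 3.39 and 3.39 CPM with H11, and 4.65 and 3.77 CPM with IFNL3. In optimized cells CISH stood at 2.04 and 3.50 CPM untreated, 2.81 and 4.61 CPM with IFNw, 4.49 and 4.69 CPM with H11, and 4.28 and 5.58 CPM with IFNL3. The wild-type values were close together except with IFNL3, and in optimized cells all 4 libraries with H11 or IFNL3 lay above both untreated ones. In optimized cells the fold change was 0.79 (SE 0.35, adjusted p = 0.0985) with H11 and 0.89 (SE 0.34, adjusted p = 0.0971) with IFNL3. Among the alternatives run, the H11 value passed the threshold only without untreated replicate 2 (1.16, adjusted p = 0.046). In wild-type cells the change with H11 was 0.004 (SE 0.32), with a 95% interval from -0.68 to 0.69. The difference between the genotypes' responses to H11, 0.78 (SE 0.48), did not pass the test (adjusted p = 0.216).

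For SOCS2, SOCS3 and CISH, the edgeR fit of all 16 libraries gave 0 calls in 19 comparisons each, and DESeq2 also gave 0. At an unadjusted p under 0.05 there were 2, 0 and 2 comparisons. The highest group mean was 3.01 times the lowest for SOCS2, 2.88 times for SOCS3 and 1.78 times for CISH.

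**Figure D2:**
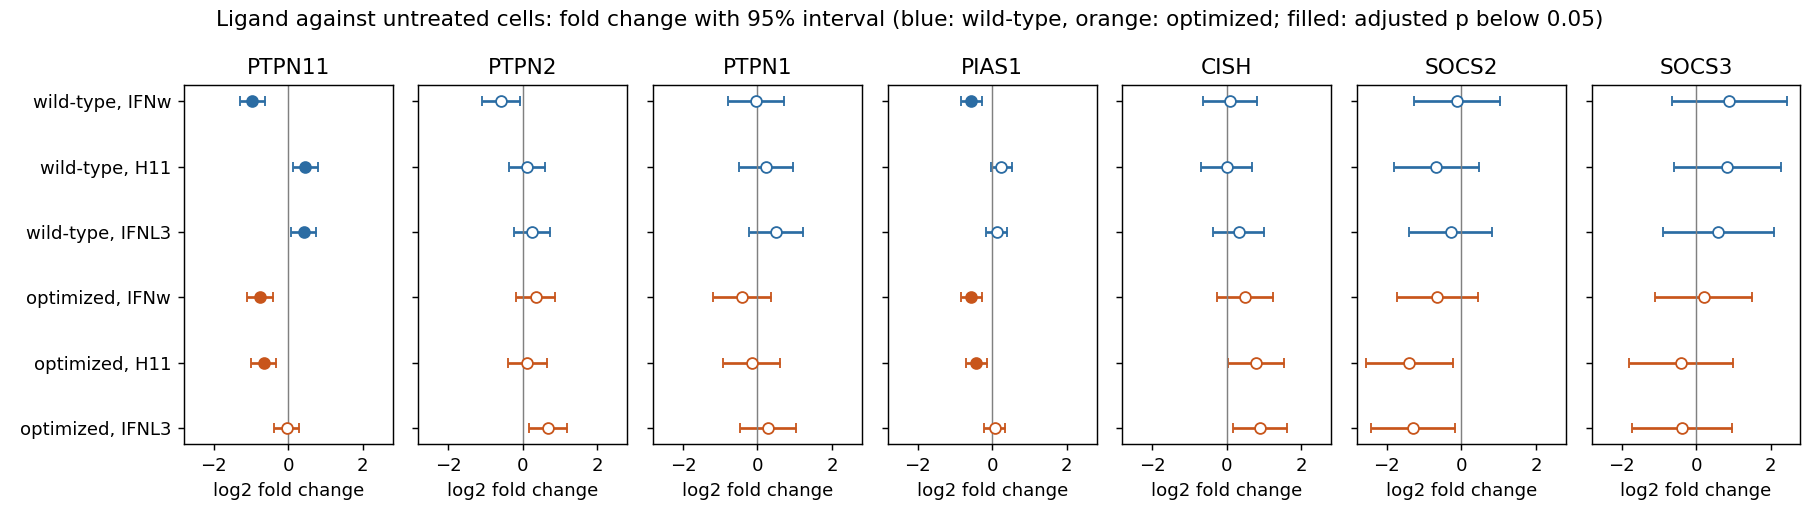
Log2 fold change of each of the 7 tested genes for each ligand against untreated cells of the same genotype, with 95% intervals. Filled points passed an adjusted p of 0.05. The intervals of SOCS3 span zero in all 6 comparisons, and filled points occur for PTPN11 (5 of 6) and PIAS1 (3 of 6).

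PTPN11, a phosphatase with a pair of SH2 domains that acts on JAK-STAT and Ras signalling, was read most deeply, with 17135 reads. Wild-type libraries held 129.6 and 129.1 CPM untreated, 71.2 and 61.6 CPM with IFNw, 185.0 and 170.1 CPM with H11, and 168.4 and 176.3 CPM with IFNL3. The 4 treatments fell into 3 levels there, with IFNw lowest, untreated between, and H11 and IFNL3 highest and overlapping. Optimized libraries held 124.1 and 86.5 CPM untreated, 66.3 and 59.3 CPM with IFNw, 67.4 and 66.5 CPM with H11, and 116.3 and 89.9 CPM with IFNL3. Here H11 stood at the level of IFNw, and IFNL3 overlapped the untreated libraries. The order of the 8 group means ran from optimized IFNw (62.8 ± 4.92 CPM, SD, n = 2), wild-type IFNw (66.4 ± 6.83 CPM) and optimized H11 (67.0 ± 0.663 CPM) to wild-type IFNL3 (172.4 ± 5.55 CPM) and wild-type H11 (177.6 ± 10.5 CPM). Its highest mean was 2.83 times its lowest.

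With IFNw, PTPN11 fell by 0.96 (SE 0.16, adjusted p = 0.000224) in wild-type and by 0.75 (SE 0.16, adjusted p = 0.00176) in optimized cells. With the length offset both falls were smaller and still passed, at -0.71 (adjusted p = 0.00216) and -0.55 (adjusted p = 0.0124). With H11 it fell in optimized cells (-0.66, SE 0.16, adjusted p = 0.00476, and -0.46 with the offset, adjusted p = 0.0305). That fall was -0.89 (adjusted p = 0.000187) without untreated replicate 2, and lost the call without untreated replicate 1 (-0.37, adjusted p = 0.0749) or with only the 2 groups in the fit (-0.65, adjusted p = 0.0662). Without replicate 2 and without replicate 1 of the untreated cells, the fall with IFNw was -0.99 and -0.46, past the threshold each time.

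In wild-type cells PTPN11 rose with H11 (0.46, SE 0.16, adjusted p = 0.0285) and with IFNL3 (0.41, SE 0.16, adjusted p = 0.0443). Both rises lay in the libraries where long transcripts had more reads. With the length offset they were 0.33 (adjusted p = 0.0958) and 0.28 (adjusted p = 0.149), no longer past the threshold. With the replicate number as a block added to the offset, a fit chosen after seeing the data, the H11 rise passed again. Leaving out any 1 of the 4 libraries also ended each call, with fold changes of 0.40 to 0.52 for H11 and 0.38 to 0.45 for IFNL3. In optimized cells the change of PTPN11 with IFNL3 was -0.04 (95% interval -0.37 to 0.30).

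Between genotypes, PTPN11 under H11 was lower in optimized cells by 2.65-fold (-1.41, SE 0.16, adjusted p = 1.59e-06). Under IFNL3 it was lower by 1.67-fold (-0.74, SE 0.16, adjusted p = 0.00168). With the length offset the values were -1.04 (adjusted p = 2.66e-05) and -0.57 (adjusted p = 0.00843). Untreated cells differed by -0.29 (adjusted p = 0.782) and IFNw-treated cells by -0.08 (95% interval -0.43 to 0.26). The response to H11 differed between genotypes by -1.11 (SE 0.23, adjusted p = 0.000922), and by -0.79 with the offset (adjusted p = 0.00956). For IFNL3 that difference was -0.45 (SE 0.22, adjusted p = 0.175) and for IFNw 0.21 (SE 0.23, adjusted p = 0.901). Leaving out 1 untreated optimized library moved 2 of these values past the threshold: the IFNL3 difference without replicate 2 (-0.68, adjusted p = 0.0178) and the untreated difference without replicate 1 (-0.58, adjusted p = 0.0245).

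PIAS1 had 12304 reads and, as counted, fell in the 3 ligand comparisons in which PTPN11 fell. Its wild-type libraries gave 81.6 and 93.6 CPM untreated, 55.2 and 63.7 CPM with IFNw, 105.4 and 101.7 CPM with H11, and 95.7 and 94.5 CPM with IFNL3. Its optimized libraries gave 85.8 and 97.0 CPM untreated, 63.3 and 60.6 CPM with IFNw, 75.0 and 61.0 CPM with H11, and 91.7 and 99.5 CPM with IFNL3. All 6 libraries with IFNw or with H11 in optimized cells lay below every other library. PIAS1 fell with IFNw by 0.56 (SE 0.14) in both genotypes, with adjusted p = 0.00464 in wild-type and adjusted p = 0.00437 in optimized cells. With H11 it fell by 0.42 in optimized cells (SE 0.14, adjusted p = 0.0239), and that call was lost without untreated replicate 2 (-0.34, adjusted p = 0.0998) or H11 replicate 2 (-0.24, adjusted p = 0.312). The wild-type call was lost without IFNw replicate 1 (-0.41, adjusted p = 0.104) or untreated replicate 2 (-0.46, adjusted p = 0.0604). With only the compared groups in the fit, both optimized falls missed the threshold (adjusted p = 0.0799 with IFNw and 0.178 with H11).

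Those 6 libraries are the ones in which long transcripts had fewer reads, and PIAS1 has the longest transcript of the 8 genes. What underlies this was not tested. With the length offset its falls were -0.21 (wild-type IFNw, adjusted p = 0.326), -0.27 (optimized IFNw, adjusted p = 0.179) and -0.15 (optimized H11, adjusted p = 0.466). Under H11, PIAS1 was 1.52-fold lower in optimized than in wild-type cells (-0.61, SE 0.13, adjusted p = 0.00116), and with the offset the difference was -0.07 (adjusted p = 0.73). The genotypes' responses to H11 differed by -0.67 (SE 0.19, adjusted p = 0.0109) and by -0.18 with the offset (adjusted p = 0.537). That call was also lost without untreated wild-type replicate 1 (-0.57, adjusted p = 0.0555) or optimized H11 replicate 2 (-0.51, adjusted p = 0.0793). PIAS1 was called in 9 of 19 comparisons as counted and in 0 with the offset, against 12 and 9 for PTPN11. In wild-type cells with IFNw it stood at the 19.2 percentile of all tested fold changes as counted and at 36.9 with the offset, and PTPN11 at 6.4 and 10.8.

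**Figure D3:**
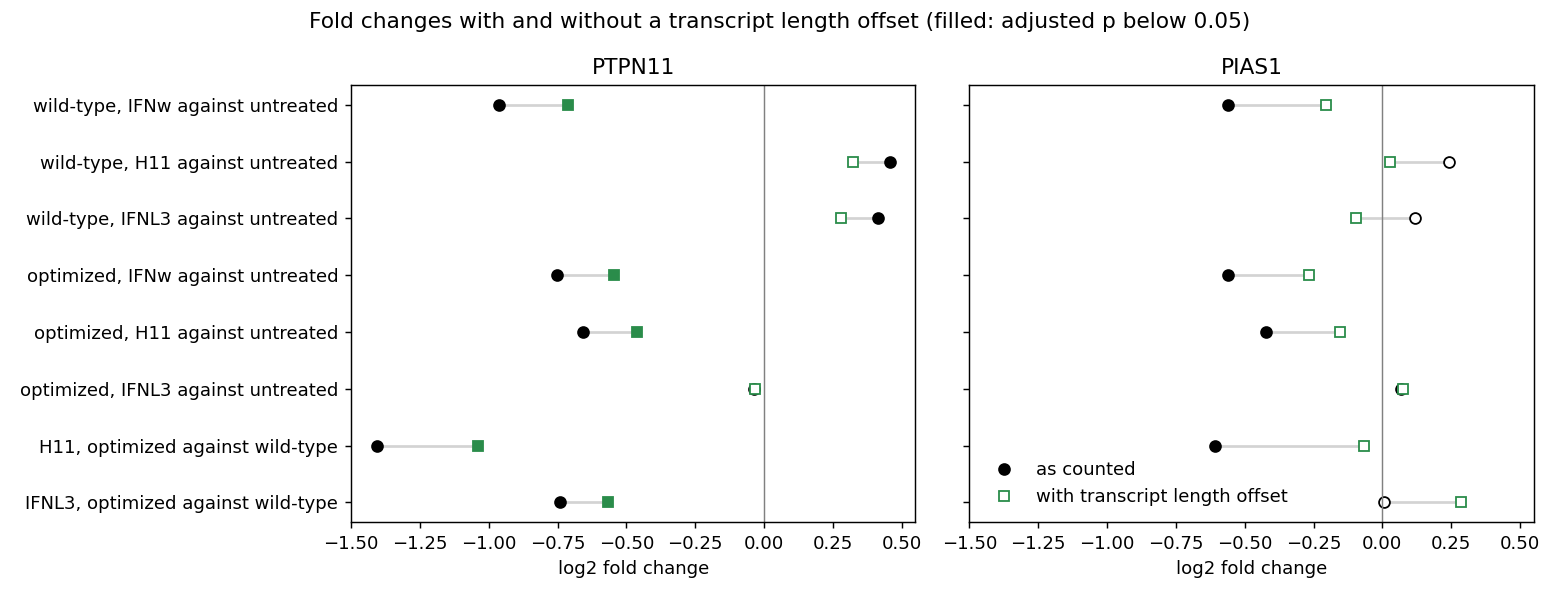
Log2 fold changes of PTPN11 (left) and PIAS1 (right) in 8 comparisons, as counted (black circles) and with the transcript length offset (green squares), filled where the adjusted p is below 0.05. All 3 falls of PTPN11 stay filled, from -0.96 to -0.71, -0.75 to -0.55 and -0.66 to -0.46, while every PIAS1 square is open.

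Over the 8 group means of log2 CPM, the PTPN11 and PIAS1 patterns had a Pearson's r of 0.903, as a description over groups that share libraries' length trends. Among 9879 genes with a mean of at least 5 CPM, the patterns most like PTPN11 were those of SPTBN1 (r = 0.999), ARFGEF1 (0.996) and YES1 (0.995). The patterns most like PIAS1 were those of LCLAT1 (0.995), STK38L (0.994) and NUDT9 (0.991). These are the highest of 9879 values over only 8 means, and how many other genes come close was not counted.

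PTPN2, a phosphatase that acts on JAK1 and on STATs in the nucleus, had 3935 reads. In wild-type cells it was at 32.5 and 27.2 CPM untreated, 20.3 and 19.4 CPM with IFNw, 30.9 and 33.2 CPM with H11, and 36.4 and 34.8 CPM with IFNL3. Only the IFNw libraries stood apart downward. In optimized cells it was at 24.0 and 11.7 CPM untreated, 25.2 and 21.4 CPM with IFNw, 22.4 and 17.3 CPM with H11, and 33.3 and 25.4 CPM with IFNL3. The 11.7 CPM of untreated replicate 2 was the lowest of all 16 libraries.

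Under H11, PTPN2 was 1.61-fold lower in optimized than in wild-type cells (-0.69, SE 0.24, adjusted p = 0.0219), with a similar value under the length offset (-0.71, adjusted p = 0.0169). Leaving out 1 library gave -0.74 to -0.50 for that difference, and without either wild-type H11 library or optimized H11 replicate 2 the adjusted p was 0.05 to 0.193. Against untreated wild-type cells, the IFNw value was -0.59 (SE 0.24, adjusted p = 0.0721). With the replicate number as a block it was -0.58 and passed (adjusted p = 0.0237). With IFNL3 in optimized cells the value was 0.68 (SE 0.24, adjusted p = 0.0716), which passed with the replicate block (0.69, adjusted p = 0.017) and in DESeq2 (0.69, adjusted p = 0.0491). The size of that value depended on untreated replicate 2: without replicate 1 it was 1.33, and over all alternatives it ran from 0.29 to 1.33. Untreated cells differed between genotypes by -0.70 (SE 0.24, adjusted p = 0.782), and by -1.35 (adjusted p = 0.00145) with replicate 2 as the only untreated optimized library.

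PTPN1, which dephosphorylates JAK2, TYK2 and the insulin receptor, had 3118 reads. In the fit described above it passed in 0 of 19 comparisons, with no unadjusted p under 0.05, and DESeq2 also made 0 calls. With the replicate number as a block it passed in 3, and with no low-count filter in 3. Wild-type libraries gave 15.9 and 22.7 CPM untreated, 10.9 and 26.5 CPM with IFNw, 17.9 and 27.2 CPM with H11, and 23.6 and 31.5 CPM with IFNL3. Optimized libraries gave 15.2 and 27.8 CPM untreated, 12.6 and 18.7 CPM with IFNw, 15.5 and 22.5 CPM with H11, and 24.2 and 27.2 CPM with IFNL3. The library numbered 2 was higher than the library numbered 1 in 8 of 8 groups, by 1.12 to 2.45 times (median 1.47). PTPN2 went the other way in 7 of 8 groups (0.488 to 1.07 times), and so did PTPN11 (0.697 to 1.05 times). With the replicate number as a block, PTPN1 was higher with IFNL3 than untreated in wild-type cells (0.52, adjusted p = 0.0328, against 0.51, SE 0.34, adjusted p = 0.258 without the block).

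**Figure D4:**
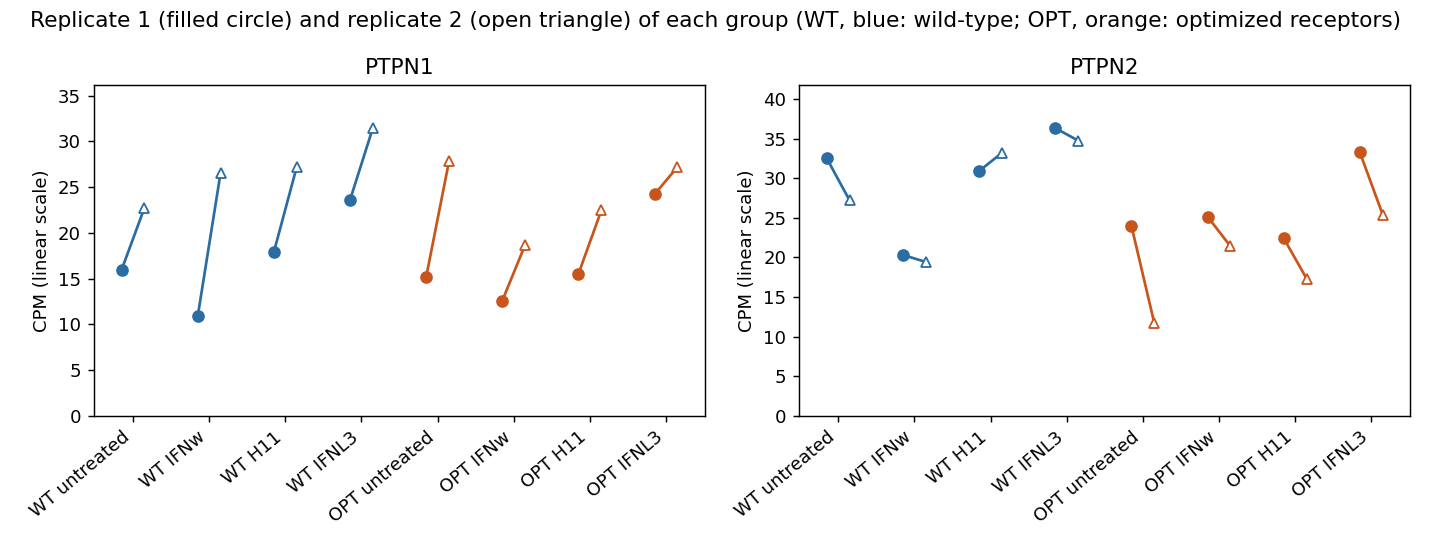
PTPN1 (left) and PTPN2 (right) in CPM (linear axis from 0), with replicate 1 (circle) joined to replicate 2 (triangle) of the same group, wild-type in blue and optimized in orange. All 8 lines of PTPN1 go up and 7 of the 8 lines of PTPN2 go down, the steepest to 11.7 CPM in untreated optimized cells.

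PTPN6, the phosphatase known mainly from blood cells, had 66 reads in 16 libraries and was not tested. Groups held 6 to 15 reads. The pooled level lay between 0.373 CPM (optimized IFNL3, exact 95% Poisson interval 0.15 to 0.768) and 0.671 CPM (wild-type IFNL3, 0.376 to 1.11), and these intervals, which cover counting error only, overlapped in all groups. No difference between groups was detectable at this depth.

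Calls of these genes can be read against all genes. In wild-type cells the count was 2 of 7 with IFNw (31.4% of all tested genes were called), 1 of 7 with H11 (38.8%) and 1 of 7 with IFNL3 (39.7%). In optimized cells it was 2 of 7 with IFNw (33.4%), 2 of 7 with H11 (32.4%) and 0 of 7 with IFNL3 (13.3%), where DESeq2 called 1 and 3 had an unadjusted p under 0.05. Between genotypes it was 0 of 7 untreated (0%), 0 of 7 with IFNw (0%), 3 of 7 with H11 (51.7%) and 1 of 7 with IFNL3 (33.2%). At an unadjusted p under 0.05 there was 1 untreated and 0 with IFNw, and DESeq2 called 0 in both. The genotypes' responses differed for 0 of 7 with IFNw (0%), 2 of 7 with H11 (36.9%) and 0 of 7 with IFNL3 (18.4%). For IFNw and IFNL3, DESeq2 called 0, and 1 and 0 had an unadjusted p under 0.05. These shares lie near or below those of all genes. The median fold change of the 7 genes was -0.12 with IFNw, 0.22 with H11 and 0.32 with IFNL3 in wild-type cells, and -0.43, -0.41 and 0.07 in optimized cells. Under the offset these medians were -0.09, 0.13, 0.27, -0.27, -0.15 and 0.08. As counted, the medians of all genes lay between -0.05 and -0.01. The ligand comparisons of a genotype share their untreated libraries.

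Ligands were also compared with each other within a genotype. In wild-type cells 3 of 7 genes passed for IFNw against IFNL3 (53.1% of all genes called), all lower with IFNw, namely PTPN11 (-1.38, SE 0.16, adjusted p = 1.91e-06), PTPN2 (-0.84, SE 0.24, adjusted p = 0.00663) and PIAS1 (-0.68, SE 0.14, adjusted p = 0.000463). The length offset gave -0.99, -0.85 and -0.11, and only the first 2 passed. The same 3 genes were higher with H11 than with IFNw (3 of 7, 52.2%), PTPN11 by 2.67-fold, PTPN2 by 1.61-fold and PIAS1 by 1.74-fold, of which PIAS1 missed the threshold with the offset (0.23, adjusted p = 0.197). PTPN2 lost its IFNw against IFNL3 call without IFNw replicate 2 (adjusted p = 0.0543), and its H11 against IFNw call without either IFNw library or H11 replicate 2 (adjusted p = 0.0884 to 0.111). H11 against IFNL3 gave 0 of 7 (0%), with 0 by DESeq2 and 0 at an unadjusted p under 0.05, and PTPN11 differed by 0.04 (95% interval -0.29 to 0.37).

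In optimized cells PTPN11 and PIAS1 were lower with IFNw than with IFNL3 (2 of 7, 19.1%), by -0.72 (SE 0.16, adjusted p = 0.00517) and -0.63 (SE 0.14, adjusted p = 0.00398). Both were also lower with H11 than with IFNL3 (2 of 7, 17.6%), by -0.62 (SE 0.16, adjusted p = 0.0128) and -0.49 (SE 0.13, adjusted p = 0.018). With the length offset alone, only PTPN11 with IFNw still passed (-0.51, adjusted p = 0.0391). As counted, that call was lost without IFNL3 replicate 1 (-0.49, adjusted p = 0.113) or IFNw replicate 2 (-0.61, adjusted p = 0.0783). Against H11, PTPN11 lost its call without IFNL3 replicate 1 or either H11 library (adjusted p = 0.0879 to 0.204), and PIAS1 without either IFNL3 library or H11 replicate 2 (adjusted p = 0.0579 to 0.252). H11 against IFNw gave 0 of 7 (0%), with 0 by DESeq2 and 0 at an unadjusted p under 0.05, and PTPN11 differed by 0.09 (95% interval -0.25 to 0.44). Whether the step from IFNL3 to H11 differs between the genotypes was not tested. The replicate block added PTPN1 to the IFNw against IFNL3 calls in wild-type (-0.61, adjusted p = 0.0121) and optimized cells (-0.75, adjusted p = 0.00934), and PTPN2 to H11 against IFNL3 in optimized cells (-0.56, adjusted p = 0.0422). With the length offset and the block together, a fit chosen after seeing the data, PTPN11 also passed for H11 against IFNL3 in optimized cells.

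Other regulators of the pathway, 17 of them tested, moved in both directions. They were listed as negative regulators, but SH2B1 among them is not one, and the counts below include it. USP18, which blocks the type I receptor at IFNAR2, rose in all 6 ligand comparisons by 2.22 to 3.01, from 20.03 CPM to 148.7 CPM with IFNw in wild-type cells. SH2B3 (LNK), an adaptor that restrains JAK2, fell in all 6 by 0.85 to 1.65, from 26.6 to 8.46 CPM in that comparison. With the length offset all 12 of these calls of USP18 and SH2B3 remained. SOCS7 fell with IFNw in wild-type (-0.90) and optimized cells (-1.10) and with H11 in optimized cells (-1.09), and all 3 passed with the offset (-0.56, -0.82 and -0.82). Its level went from 27.4 to 14.7 CPM with IFNw in wild-type cells. STUB1, a ubiquitin ligase that works with chaperones, rose with IFNw in wild-type cells (0.88) and with all 3 ligands in optimized cells (1.16 with IFNw, 1.20 with H11 and 0.78 with IFNL3), and passed with the offset in all 4. SH2B1, an adaptor that promotes JAK2 activity, rose with H11 (1.18) and IFNL3 (1.44) in wild-type cells, and passed with the offset (1.05 and 1.31). PIAS4, a relative of PIAS1, rose with H11 (0.66, adjusted p = 0.00452) and IFNL3 (0.58, adjusted p = 0.0111) in wild-type cells, and passed with the offset (0.71 and 0.61). Over the 6 comparisons, in the order wild-type IFNw, H11, IFNL3 and optimized IFNw, H11, IFNL3, there were 2, 5, 5, 2, 2 and 2 higher and 3, 1, 1, 4, 5 and 1 lower. With the offset there were 2, 3, 3, 3, 2 and 2 higher and 2, 1, 1, 2, 2 and 1 lower. The shares of all genes called, higher or lower, in this order were 31.4%, 38.8%, 39.7%, 33.4%, 32.4% and 13.3%.

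The SOCS-box ligase partners include elongins B and C (listed as TCEB2 and TCEB1) and the RING proteins RBX1 and RNF7. Of 7 tested, 4 rose with IFNw in wild-type cells and the same 4 rose with IFNw and with H11 in optimized cells: TCEB1, TCEB2, RBX1 and RNF7. Of all tested genes, 31.4%, 33.4% and 32.4% were called in these comparisons, higher or lower. RBX1 rose from 340.4 to 850.7 CPM with IFNw in wild-type cells (1.32, SE 0.13, adjusted p = 5.57e-07). With H11 in wild-type cells TCEB2 (-1.08), RBX1 (-0.90) and UBE2F (-0.88) fell, and with IFNL3 TCEB2 (-0.97), RBX1 (-0.92), UBE2F (-0.65) and RNF7 (-0.49). CUL2 rose in both (0.51 and 0.46), where 38.8% and 39.7% of all genes were called. With the offset 3 calls of these genes were lost: TCEB2 with IFNw (0.50, adjusted p = 0.0538), UBE2F with IFNL3 (-0.45, adjusted p = 0.0916) and RNF7 with IFNL3 (-0.41, adjusted p = 0.0552), all in wild-type cells. The list's median was 0.78 with IFNw and -0.33 with H11 in wild-type cells, 0.50 and -0.40 with the offset, and 0.63 with H11 in optimized cells (0.52 with the offset).

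Among the 19 tested receptors, kinases and STATs on which the brakes act, STAT2, IRF9 and IRF1 rose in all 6 comparisons, with and without the offset. JAK1, the kinase shared by both interferon receptors and a substrate of PTPN2, fell with IFNw (wild-type -1.08, adjusted p = 0.0075, optimized -0.94, adjusted p = 0.0185) and with H11 in optimized cells (-0.93, adjusted p = 0.0203). It passed with the offset each time (-0.91, -0.81 and -0.81). STAT5A, an activator of CISH, fell with H11 (-1.53, adjusted p = 0.0146) and IFNL3 (-1.30, adjusted p = 0.0318) in wild-type cells, from 3.09 to 1.06 and 1.25 CPM, and passed with the offset (-1.55 and -1.32). IL10RB, the shared chain of the IFNL3 receptor, fell there too, by 0.91 with IFNL3, from 21.6 CPM to 10.8 CPM with H11 and 11.5 CPM with IFNL3, and passed with the offset (-0.71 with IFNL3). Counts over the 6 comparisons were 5, 3, 4, 4, 4 and 3 higher and 2, 5, 6, 4, 1 and 2 lower. With the offset they were 5, 3, 4, 3, 3 and 3 higher and 2, 5, 6, 2, 2 and 1 lower. As counted, the shares of all genes called, higher or lower, were 31.4%, 38.8%, 39.7%, 33.4%, 32.4% and 13.3% in the same order.

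STAT3 and STAT5 target genes other than SOCS3 and CISH did not move as 1 group. Of 13 tested, 4, 3, 2, 5, 3 and 3 were higher and 4, 2, 3, 4, 5 and 3 lower in the same order of comparisons, to be read beside the shares of all genes given above (31.4%, 38.8%, 39.7%, 33.4%, 32.4% and 13.3%). With the offset 1, 3, 3, 3, 2 and 3 were higher and 3, 2, 3, 4, 5 and 3 lower. JUNB rose with IFNw in wild-type (1.04) and with every ligand in optimized cells (0.97 to 1.06), and the kinase gene PIM1 fell in the same 4 comparisons (-1.004 in wild-type, -1.09 to -0.85 in optimized cells). VEGFA, which encodes an angiogenic growth factor, fell in all 6 (-1.22 to -0.93), from 74.7 to 39.2 CPM with IFNw in wild-type cells. CEBPD fell with H11 (-2.04) and IFNL3 (-1.77) in wild-type cells, from 37.8 to 9.15 and 11.1 CPM, and rose with H11 in optimized cells (0.89), to 63.3 CPM. With the offset these calls of JUNB, PIM1 and CEBPD remained, and VEGFA lost its call with IFNw in wild-type cells (-0.49, adjusted p = 0.0569) and kept the other 5.

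Partners of PTPN11 and PTPN6 in growth-factor signalling, 17 of them tested, were called about as often as all genes in 3 comparisons: 6 with IFNw in wild-type cells (31.4% of all genes), and 7 with IFNw (33.4%) and 6 with H11 (32.4%) in optimized cells. With IFNw in wild-type cells 0 rose and 6 fell, among them the transcription factor ETV5 (-1.89), the Ras exchange factor SOS1 (-1.20) and the docking protein GAB2 (-0.92). With IFNw and with H11 in optimized cells 2 rose in each, one of them the adaptor GRB2 (1.05 and 0.96), while 5 and 4 fell, among them the docking protein GAB1 (-0.90 and -0.81). SOS1 rose with H11 and IFNL3 in wild-type cells (0.59 and 0.48, 0.36 and 0.25 with the offset, no longer past the threshold), where 3 and 2 of the list rose and 3 and 2 fell (38.8% and 39.7% of all genes called). With IFNL3 in optimized cells 0 rose and 1 fell (13.3% of all genes called), GAB2 (-0.86, adjusted p = 0.00565). GAB2 fell in all 6 comparisons, and did so with the offset too (-1.10 to -0.67). The calls given for ETV5, GRB2 and GAB1, and that of SOS1 with IFNw in wild-type cells, also remained with the offset. Over the 6 comparisons the offset left 0, 0, 1, 2, 2 and 1 higher and 4, 4, 2, 5, 5 and 1 lower.

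**Figure D5:**
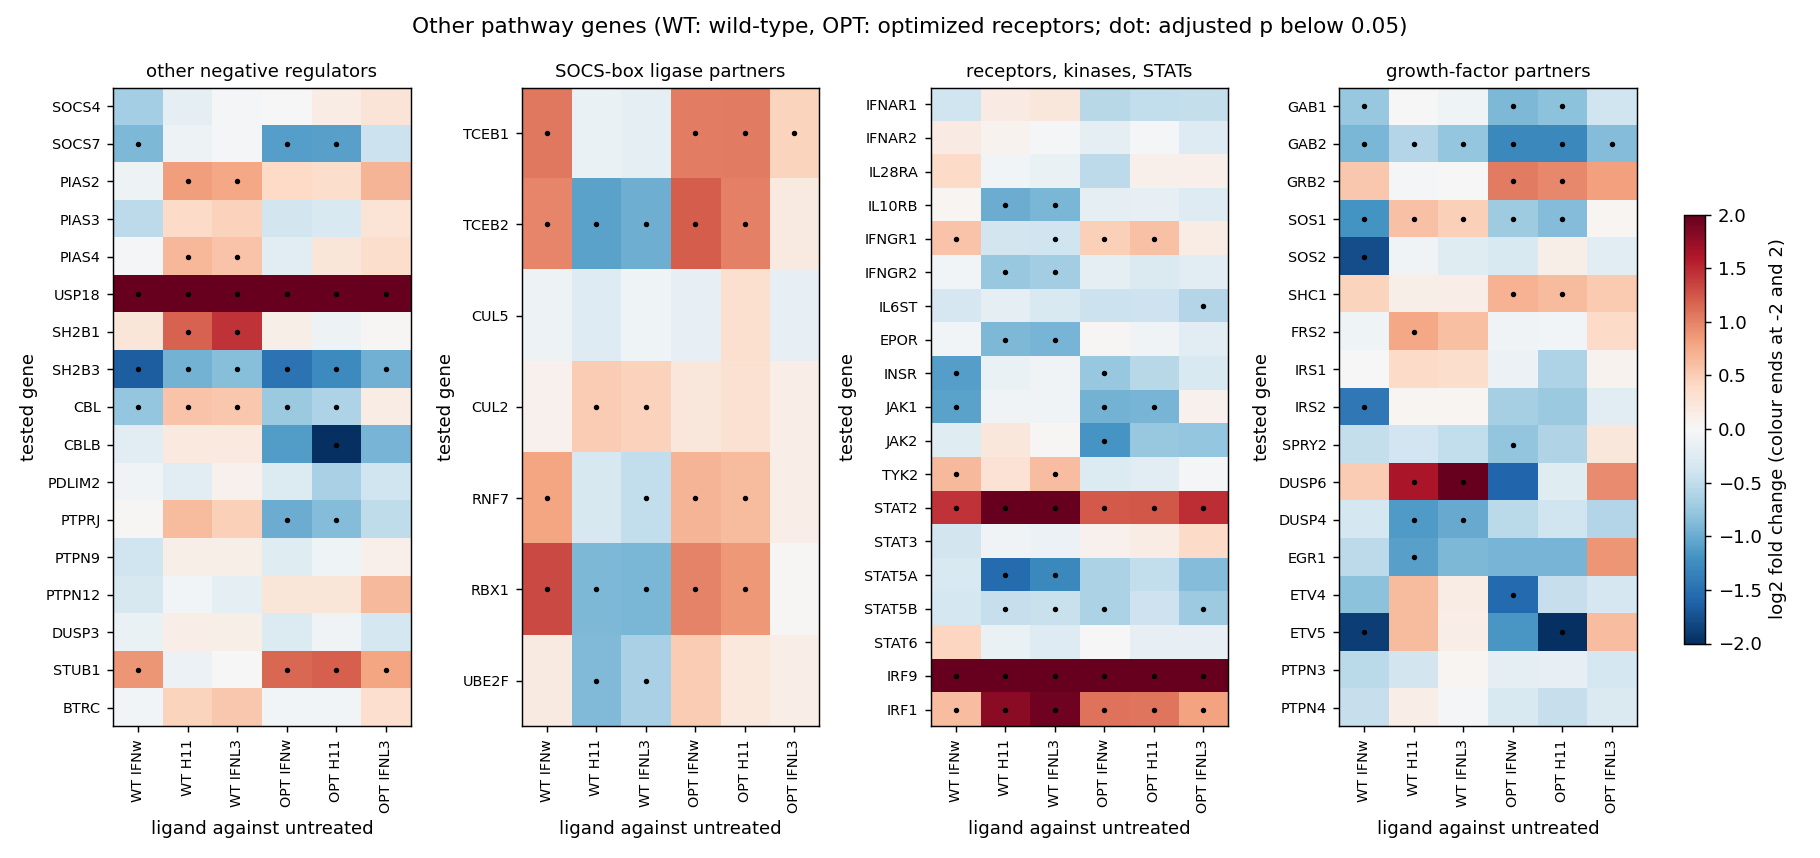
Log2 fold change of the tested genes of 4 lists (colour, ending at -2 and 2) for each ligand against untreated cells, with wild-type (WT) and optimized (OPT) receptors, and a dot where the adjusted p is below 0.05. USP18 is red and SH2B3 blue in all 6 columns, and TCEB2 and RBX1 are red with IFNw and blue with H11 and IFNL3 in wild-type cells.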

How the data were processed

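RNA of 16 HEK293 libraries was counted per gene target, and the authors deposited 1 file of whole-number read counts per library, which are not normalized, judging from the values and the file headers. Libraries were made with an Ion Torrent kit, per the labels' protocols, and the submitters' processing notes name the genome build hg19. Aligner, counter, target positions and strand use are not given in the sources at hand. The 9 genes and all lists were chosen with earlier results of these data known. Of 20812 rows, 10 spike-ins (at most 1 read) were left out, and 27 of 28 symbols turned into dates were renamed. SOCS1 and SOCS6 are not analysed here, and 1 gene of the lists is not reported here.

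The tool for these counts was edgeR 4.0.16, run in R 4.3.3, with filterByExpr, TMM factors (0.795 to 1.28) and a quasi-likelihood fit. All 16 libraries entered one fit of 8 groups, and 19 comparisons were made (common dispersion 0.0176, a coefficient of variation of 13.3%). CPM values use the TMM-scaled library sizes. The length offset removes a spline (5 df) on the log of the longest transcript, known for 12131 of 12704 tested genes (95.5%). Same-numbered libraries deviated together (correlation of replicate differences between groups 0.114 to 0.300, over 0.1 in 28 of 28 group pairs), so the numbers pair the samples. The 19 comparisons were made without this pairing, and a fit with the replicate number as a block was an alternative. In each of the 8 groups the replicates differed by more than sampling noise, with chi-square values of 6.58 to 26.1 per degree of freedom. Other alternatives were DESeq2 1.42.0, edgeR with those size factors, a fit with no low-count filter, only the groups compared, and each library left out. The fit was tested on simulated data.

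From each list, up to 5 called genes per comparison with the largest fold change were named. IL10RB, IRF1, CEBPD and GAB2, in 1 comparison each, fall outside that rule and were named after their values were seen. Levels of listed genes could be given in any group. Reads carry no molecular identifiers. The Poisson intervals given for PTPN6 cover counting error only. Intervals on fold changes come from the edgeR fit and also take in the spread between libraries.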

Additional observations from a re-analysis of the deposited data

Results flagged for a closer look

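For 2 genes the response to H11 differed between the genotypes by the test of the difference itself, edgeR's interaction contrast. For PTPN11 the difference (optimized minus wild-type) was -1.115 (SE 0.226, adjusted p = 0.000922), with a response of 0.46 in wild-type and -0.66 in optimized cells. For PIAS1 it was -0.665 (SE 0.19, adjusted p = 0.0109), with responses of 0.24 and -0.42. With the transcript length offset the PTPN11 difference was -0.79 (adjusted p = 0.00956) and that of PIAS1 -0.18 (adjusted p = 0.537).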

How the results depend on the processing

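With the transcript length offset the number of genes called was 1 for wild-type IFNw, 0 for wild-type H11, 0 for wild-type IFNL3, 1 for optimized IFNw, 1 for optimized H11 (all against untreated), 1 for the difference between responses to H11, and in optimized cells 1 for IFNw against IFNL3 and 0 for H11 against IFNL3. Without a low-count filter it was 2 for wild-type IFNL3 and 1 for optimized IFNL3, and with the replicate block it was again 2 and 1. The block otherwise moved only the PTPN1 and PTPN2 calls given above and changed no other call. DESeq2 gave 1 for optimized IFNL3. With only the compared groups in the fit it was 2 for wild-type IFNL3, 1 for optimized IFNw and 0 for optimized H11. The offset with the block, chosen after seeing the data, gave 1 for optimized IFNw, 1 for optimized H11, 1 for optimized IFNL3 and 1 for the response difference to H11. In that fit PTPN11 kept 2 calls that the offset alone lost: wild-type H11 against untreated, and H11 against IFNL3 in optimized cells. Leaving out each library in turn (the one left in its group takes its spread from all groups) gave 1 to 2 for wild-type IFNw, 0 for wild-type H11 and wild-type IFNL3, 1 to 3 for optimized H11, 0 to 2 for optimized IFNL3 and 0 to 2 between untreated genotypes. It gave 0 to 1, 1 to 2 and 0 to 1 for the response differences to IFNw, H11 and IFNL3, and in optimized cells 1 to 2 for IFNw against IFNL3 and 0 to 1 for H11 against IFNL3. The cause was not tested. Of 133 pairs of a gene and a comparison, the sign turned in at least 1 alternative for 0 of the 24 called, 53 of the 92 called in no fit and 3 of the 17 called only in an alternative. Among those called in no fit, over all alternatives SOCS3 in optimized cells ranged from -0.625 to 1.388 with IFNw and from -1.24 to 0.773 with H11, and in wild-type cells with IFNw SOCS2 ranged from -0.635 to 0.519 and PTPN1 from -0.802 to 0.507. Leaving out 1 library, PTPN2 in optimized cells went from -0.047 to 0.99 with IFNw and from -0.271 to 0.766 with H11. Its lowest values were without untreated replicate 2, and the H11 value was also below 0 without H11 replicate 1 (-0.05). PTPN1 in wild-type H11 against IFNw went from -0.267 (without IFNw replicate 1) to 1.042, and was -0.066 without H11 replicate 2. Depth limits SOCS2, SOCS3, CISH and PTPN6 most.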
